A study of Mus musculus with 6 samples.

Results

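The genes described here are the 4 mammalian Notch receptors (Notch1, Notch2, Notch3 and Notch4), 3 of their ligands (Dll4, Jag1 and Jag2) and 3 transcriptional repressors that Notch signaling switches on (Hey1, Hey2 and Heyl). They were taken by gene symbol, with earlier results of these data known. All 10 were found among the 38293 genes of the count table. They passed the filter on low counts, as did 14746 genes in all. RNA-seq was performed on cardiac tissue of 3 WT and 3 Zeb2 cKO mice 14 days after myocardial infarction (MI), to ask how loss of the zinc finger repressor ZEB2 from cardiomyocytes changes the injured heart. Both groups were adult mice on a backcrossed C57BL/6J background with a permanent occlusion of the left anterior descending artery. The mice labelled WT carried the floxed Zeb2 alleles without Cre (Zeb2 fl/fl), and the Zeb2 cKO mice carried them with Cre driven by the Myh6 promoter, so that recombination was directed to cardiomyocytes while all other cells of the heart kept Zeb2. Mice with Cre alone and mice without infarct were not analysed here. The sources disagree on the piece of heart taken, which is the infarct border by the labels and the remote zone by the methods.

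Notch receptors are single-pass membrane proteins that bind ligands of the Delta and Jagged families on a neighbouring cell. Ligand binding lets a metalloprotease and then gamma-secretase cut the receptor, and the released intracellular domain enters the nucleus, joins the DNA-binding protein RBPJ and activates genes of the Hes and Hey families. In blood vessels, Dll4 and Jag1 are known for opposing effects on sprouting, Notch1 and Notch4 are found in endothelium, and Notch3 and Heyl are found in the mural cells, that is the pericytes and smooth muscle cells that wrap it.

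In these hearts none of the 10 genes differed between genotypes beyond the spread of the libraries. With edgeR's quasi-likelihood test and Benjamini-Hochberg adjustment over all tested genes, 0 of 10 passed an adjusted p of 0.05, where the share over all genes was 0%, and their adjusted p ran from 0.957 to 0.993. At an unadjusted p of 0.05 the count was again 0 of 10, against 280 genes or 1.9% of those tested, and DESeq2 also called 0 of 10 at this threshold. The libraries of the genotypes overlapped in all 10 genes, where 3.39% of all tested genes lay wholly higher and 2.97% wholly lower in Zeb2 cKO hearts. Fold changes here are log2 ratios of Zeb2 cKO over WT. Only Notch2 lay under -0.2, a range that held 22.6% of all genes, and 0 of the 10 lay over 0.2, a range that held 15.9%. The median log2 fold change of the 10 genes was 0.0055, against -0.0069 for all tested genes. The WT libraries took most of the extremes: WT 1 was the highest of the 6 libraries for 6 of these genes, and WT 2 was the lowest for 6 and the highest for 3.

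**Figure D1:**
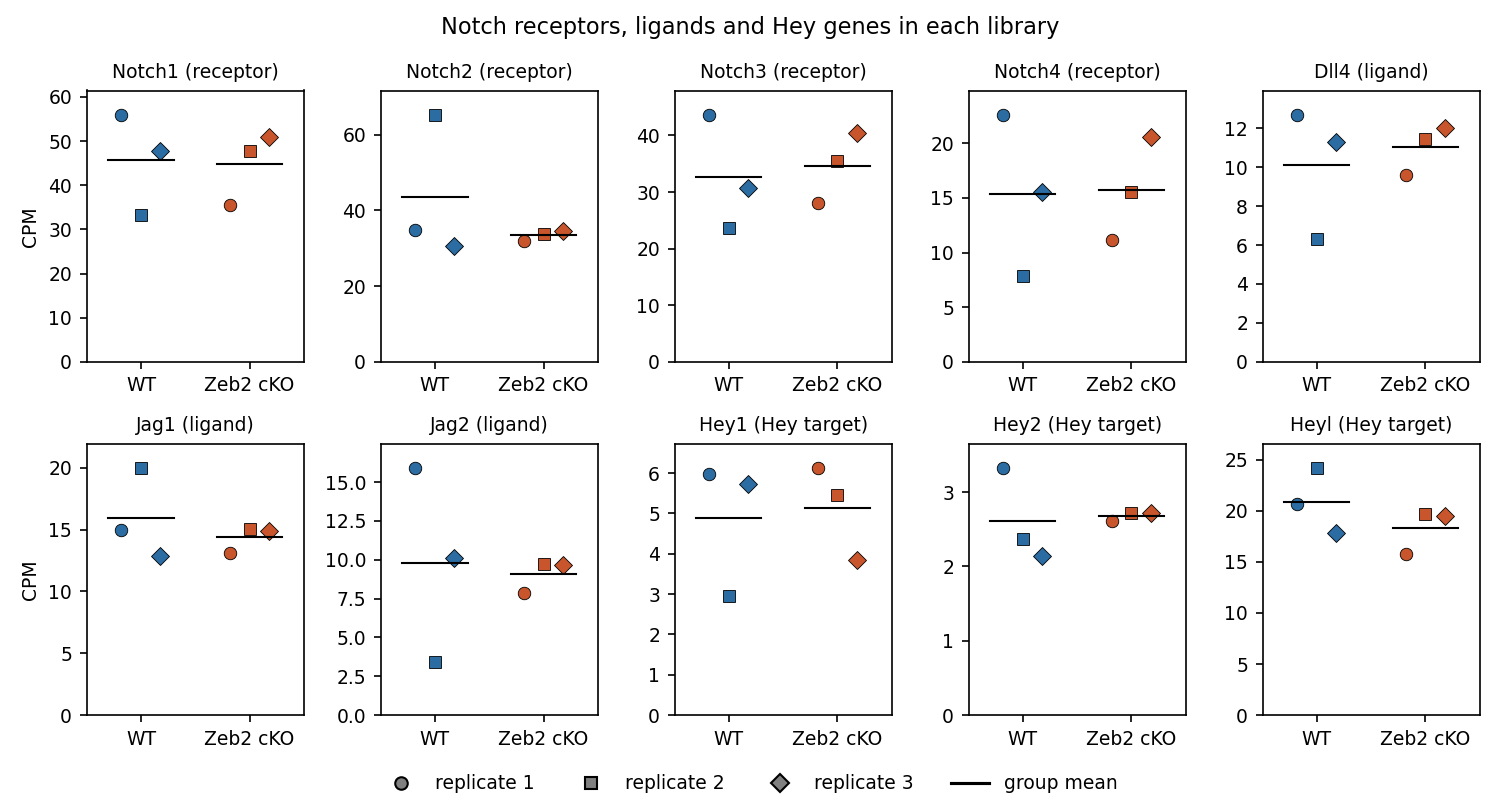
Levels of the 10 genes in CPM, that is counts for every 1000000 of a library's scaled size, with WT in blue, Zeb2 cKO in orange, symbols for the replicate number and a line at each group mean. The groups overlap in all 10 panels, and the square of WT 2 is the lowest point for Notch1, Notch3, Notch4, Dll4, Jag2 and Hey1 and the highest for Notch2, Jag1 and Heyl.

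The 6 libraries held 37288174 to 51136331 counts, of which 60.5% to 67.0% fell on mitochondrial genes, leaving 14301225 to 19024394 counts for all others. Zeb2 itself was at 61.3, 116 and 71.9 CPM in WT 1, 2 and 3 and at 59.6, 72.6 and 66.5 CPM in Zeb2 cKO 1, 2 and 3. The log2 fold change of Zeb2 was -0.33 (standard error 0.25, exact permutation test, two-sided p = 0.5), and the groups overlapped. With 1 library left out it ran from -0.50 without WT 1 (unadjusted p = 0.0718 by edgeR) to -0.0058 without WT 2, with -0.42 without WT 3. Counts over the whole gene include transcripts from which only the floxed part is missing and RNA from the cells that kept Zeb2. The markers of ventricular cardiomyocytes marked the tissue as heart ventricle, with Myl2 at 2040 to 3065 CPM, while the atrial light chain Myl7 was at 0.114 to 1.23 CPM in 5 libraries and at 7.26 CPM in Zeb2 cKO 2. WT 2 had a summed level of 10 fibroblast markers of 10551 CPM, where the others had 2193 to 2782 CPM, and of 10 macrophage markers of 917 CPM, where the others had 230 to 325 CPM. For 10 ventricular cardiomyocyte markers it had 36984 CPM against 58677 to 71383 CPM. In tissue RNA, fewer cells of a type and less RNA per cell cannot be told apart.

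Notch1, the receptor that controls endothelial fate and sprouting, lies at chr2:26457903-26516663 on the minus strand of GRCm38. It was at 55.9, 33.2 and 47.8 CPM in WT 1, 2 and 3 and at 35.5, 47.8 and 50.9 CPM in Zeb2 cKO 1, 2 and 3. The lowest libraries were WT 2 and Zeb2 cKO 1, 1 of each genotype, and the groups overlapped over nearly their whole range. The group means were 45.6 ± 11.5 and 44.7 ± 8.19 CPM (SD, n = 3 each). The log2 fold change of Notch1 was -0.028, with a 95% confidence interval of -0.57 to 0.51 (exact permutation test, two-sided p = 1, where 3 against 3 libraries can reach no less than 0.1).

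Notch2, a receptor found in several cell types of the heart including macrophages and fibroblasts, lies at chr3:98013527-98150361 on the plus strand. Its levels in the WT libraries were 34.8, 65.2 and 30.5 CPM, and those in the Zeb2 cKO libraries were 31.8, 33.9 and 34.6 CPM. The whole difference between the means lay in WT 2, and the remaining WT libraries enclosed all 3 Zeb2 cKO libraries. Notch2 had the most negative log2 fold change of the 10 genes, -0.38 (95% confidence interval -1.05 to 0.29, exact permutation test, two-sided p = 0.7). Without WT 2 it was 0.038 (-0.20 to 0.28). Fibroblast and macrophage markers were high in the same library, and with their joint mean as a covariate the value was -0.054 (standard error 0.12).

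Notch3, the receptor of mural cells, lies at chr17:32120820-32166852 on the minus strand. In WT hearts it was at 43.6, 23.6 and 30.7 CPM, and in Zeb2 cKO hearts at 28.0, 35.4 and 40.5 CPM. The highest and the lowest library were both WT. Its log2 fold change was 0.087 (95% confidence interval -0.50 to 0.67, exact permutation test, two-sided p = 0.8).

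Notch4, a receptor largely restricted to endothelium, lies at chr17:34564268-34588503 on the plus strand. It spanned 22.6, 7.88 and 15.6 CPM in the WT libraries and 11.1, 15.5 and 20.6 CPM in the Zeb2 cKO libraries. WT 1 and WT 2 again formed the 2 ends, and this was the receptor with the widest spread, an SD of 0.56 in log2 CPM over the 6 libraries against a median of 0.25 for all tested genes. The log2 fold change of 0.039 therefore came with a 95% confidence interval of -0.89 to 0.97 (exact permutation test, two-sided p = 1), which leaves room for changes of close to 2-fold either way.

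Among the ligands, Dll4, the Delta ligand of arterial and sprouting endothelium, lies at chr2:119325784-119335962 on the plus strand. In WT 1, 2 and 3 its values were 12.7, 6.29 and 11.3 CPM, and in Zeb2 cKO 1, 2 and 3 they were 9.61, 11.4 and 12.0 CPM. A single library, WT 2, stood well below the others, and the Zeb2 cKO values lay between those of the WT libraries. The log2 fold change was 0.13 (95% confidence interval -0.49 to 0.74, exact permutation test, two-sided p = 0.8).

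Jag1, the ligand that endothelium presents to mural cells, lies at chr2:137081456-137116644 on the minus strand. Values of 14.9, 19.9 and 12.9 CPM were found in WT hearts and of 13.1, 15.1 and 14.9 CPM in Zeb2 cKO hearts. WT 2, the lowest library for Dll4, was the highest for Jag1. Its log2 fold change was -0.15 (95% confidence interval -0.57 to 0.27, exact permutation test, two-sided p = 0.8). Set against each other within a library, Dll4 over Jag1 had a log2 ratio of CPM of -0.24 in WT 1, -1.66 in WT 2 and -0.19 in WT 3, and of -0.45, -0.40 and -0.31 in Zeb2 cKO 1, 2 and 3. All 3 Zeb2 cKO hearts thus lay between WT 2 and the other WT hearts, with means of -0.70 ± 0.84 in WT and -0.39 ± 0.07 in Zeb2 cKO (SD, n = 3 each).

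Jag2, the second Jagged ligand, lies at chr12:112907819-112929776 on the minus strand and varied more than any other of the 10 genes. It was at 15.9, 3.44 and 10.1 CPM in WT 1, 2 and 3 and at 7.85, 9.73 and 9.64 CPM in Zeb2 cKO 1, 2 and 3. The 3 Zeb2 cKO hearts sat close together, below WT 1 and WT 3 and above WT 2. Over the 6 libraries the SD was 0.72 in log2 CPM, and the log2 fold change of -0.11 had a 95% confidence interval of -1.25 to 1.02 (exact permutation test, two-sided p = 0.8). Without WT 2, Jag2 was the single member with an unadjusted p under 0.05, at a log2 fold change of -0.52 (standard error 0.20, 95% confidence interval -0.98 to -0.052, unadjusted p = 0.0336 and Benjamini-Hochberg adjusted p = 0.9997 by edgeR). In that fit 1 of 10 members was below the threshold, against 2.63% of 14966 genes, and 1 of 10 lay wholly lower in Zeb2 cKO, against 7.22% of genes. Without WT 1 in place of WT 2, the same gene had a log2 fold change of 0.42, so its direction rested on which WT heart was counted. The fit that adds the joint mean of the fibroblast and macrophage markers as a covariate gave -0.37 (unadjusted p = 0.0336 by edgeR). In that fit 3% of all genes were under 0.05.

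The sequence upstream of Hey2 is shown because, among the 8 of 10 members with a promoter window in the RefSeq table used, it was the only one with a match to a searched motif. The windows span 250 bases before to 50 bases after the transcript start, and matches were searched on both strands. The motifs were the E-box CACCTG, which ZEB factors are known to bind, the RBPJ core TGGGAA and the E-box CACGTG that HEY repressors are known to bind. The Hey2 stretch lies at chr10:30842781-30843033 on the minus strand of GRCm38.p6 and is written from 5′ to 3′ of the gene, with matches in capitals.
Hey2: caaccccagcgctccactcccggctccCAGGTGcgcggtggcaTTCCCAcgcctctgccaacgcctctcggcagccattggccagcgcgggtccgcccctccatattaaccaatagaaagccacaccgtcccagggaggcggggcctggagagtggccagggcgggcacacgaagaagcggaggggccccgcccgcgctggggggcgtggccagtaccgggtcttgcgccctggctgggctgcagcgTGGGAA
The first run of capitals is the ZEB E-box read on the opposite strand (first base at -223 from the start). The second is the RBPJ core on the opposite strand (first base at -207), and the third is the same core on the gene's own strand (first base at -3), crossing the start. Over 32817 promoter windows of the same length, 20.22% held CACCTG, 25.56% held TGGGAA and 7.149% held CACGTG, which was found in 0 of the 8 members. Such matches are letters in a window and were not tested as binding sites.

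Hey2, known for its part in arterial identity and in keeping atrial genes off in the ventricle, was the lowest of the 10 genes, and its gene lies at chr10:30832359-30842801. It was at 3.32, 2.37 and 2.14 CPM in WT hearts and at 2.62, 2.72 and 2.72 CPM in Zeb2 cKO hearts, or 82 to 146 counts per library. The Zeb2 cKO libraries all fell between WT 2 and WT 1. The log2 fold change was 0.043 (95% confidence interval -0.44 to 0.53, exact permutation test, two-sided p = 1).

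Hey1, the Hey gene of endothelium and atria, lies at chr3:8663359-8667256 on the minus strand. Its WT values of 5.97, 2.96 and 5.73 CPM compared with 6.12, 5.46 and 3.83 CPM in Zeb2 cKO 1, 2 and 3. WT 2 was lowest once more, and Zeb2 cKO 2, the library with the raised atrial light chain Myl7, was not the highest. Whether atrial tissue adds to the Hey1 level was not tested. The log2 fold change of Hey1 was 0.073 (95% confidence interval -0.65 to 0.80, exact permutation test, two-sided p = 0.8).

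Heyl, the Hey gene of mural cells, lies at chr4:123233556-123249875 on the plus strand. WT hearts had 20.7, 24.1 and 17.8 CPM of it, and Zeb2 cKO hearts had 15.7, 19.6 and 19.5 CPM. Here WT 2 was the highest and Zeb2 cKO 1 the lowest. Heyl had the narrowest interval of the 10 genes, with a log2 fold change of -0.19 (95% confidence interval -0.56 to 0.18, exact permutation test, two-sided p = 0.4). The ratio of Heyl over Hey1 followed the library, with a log2 ratio of CPM of 3.03 in WT 2 and of 1.36 to 2.34 in the other libraries.

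**Figure D2:**
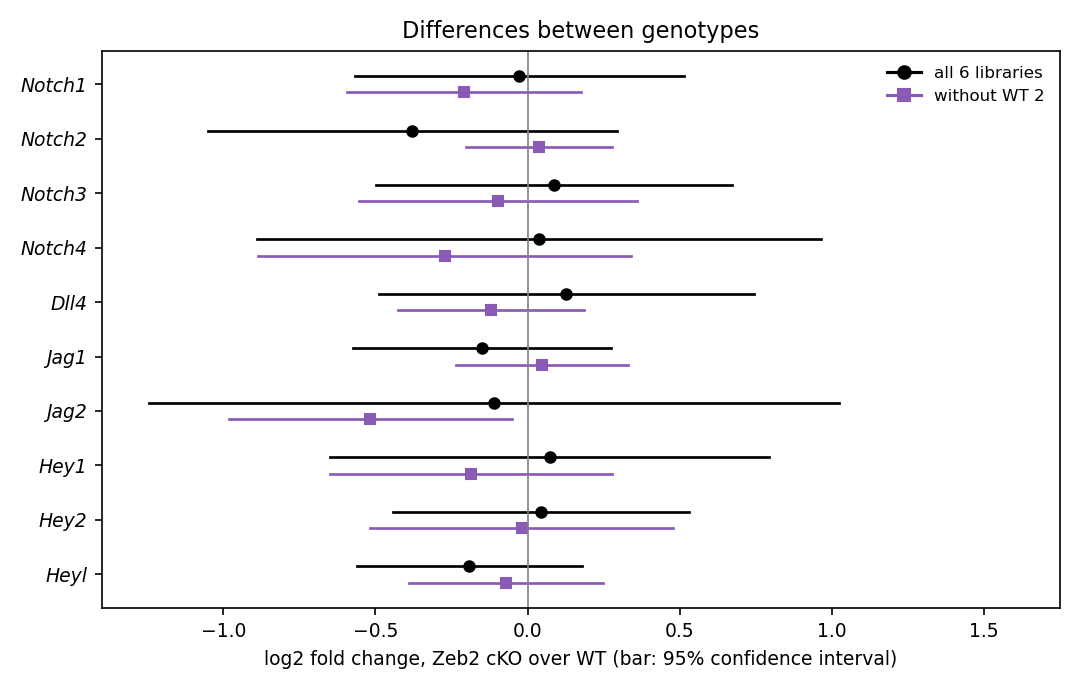
Log2 fold change of Zeb2 cKO over WT with its 95% confidence interval from edgeR, for all 6 libraries (black circles) and without WT 2 (purple squares). All 10 intervals include 0 with all libraries, and without WT 2 the interval of Jag2, at -0.52, is the only one that does not.

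Leaving out WT 2 moved the sign of 7 of the 10 fold changes, those of Notch2, Notch3, Notch4, Dll4, Jag1, Hey1 and Hey2. Notch1, Notch4 and Jag2 were then under -0.2, at -0.21, -0.27 and -0.52, against 11.7% of all genes in that range. Without WT 1, 6 of the 10 genes were over 0.2, against 26.5% of all genes, and Hey2 lay wholly higher in Zeb2 cKO, as did 10.9% of all genes. Without WT 3, Notch2 and Heyl lay wholly lower, as did 6.48% of all genes. Each of these 3 genes had an unadjusted p over 0.05 in that fit.

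Relative to the mean of the 6 libraries on the log2 scale, WT 2 was at -0.42 for Notch1, -0.48 for Notch3, -0.89 for Notch4, -0.71 for Dll4, -1.32 for Jag2 and -0.71 for Hey1. For Notch2, Jag1 and Heyl it was at 0.82, 0.41 and 0.31. In the same library the mean of 15 endothelial markers was at -0.28 and that of 10 mural markers at -0.21, while fibroblast markers were at 1.58 and macrophage markers at 1.42. WT 2 was the lowest library for 6 and the highest for 3 of the 10 genes (60% and 30%), where it was the lowest for 34.6% and the highest for 35.2% of all tested genes. WT 1 was the highest library for 6 of the 10 genes (60%), namely Notch1, Notch3, Notch4, Dll4, Jag2 and Hey2, and the lowest for 0, where it was the highest for 16.6% and the lowest for 16.9% of all tested genes. These differences in share were not tested.

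**Figure D3:**
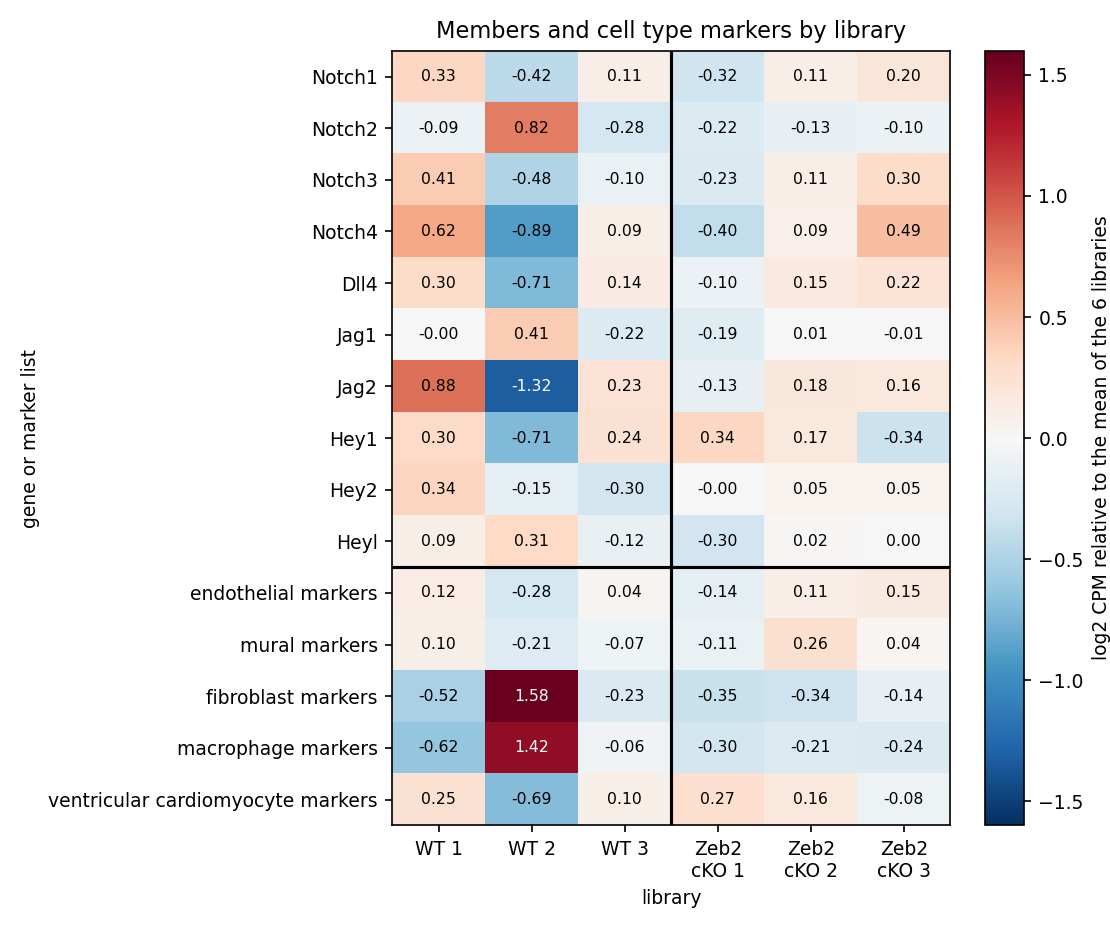
Log2 CPM of each gene, and the mean log2 CPM of each list of cell type markers, relative to the mean of the 6 libraries shown as columns. In WT 2, Notch2, Jag1 and Heyl share the sign of the fibroblast (1.58) and macrophage (1.42) markers, while the other 7 genes share the sign of the endothelial (-0.28) and mural (-0.21) markers.

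The endothelial markers moved with several of the genes across libraries, but so did other lists. Pearson's r of Notch1 was 0.96 with the endothelial and -0.68 with the fibroblast marker mean. For Dll4 it was 0.95 with endothelial, -0.93 with fibroblast and -0.94 with macrophage markers. For Hey1 it was 0.45 with endothelial and 0.95 with ventricular cardiomyocyte markers. Summed over the 15 markers, the endothelial level was 758 CPM in WT 2 and 859 CPM in Zeb2 cKO 1, the 2 lowest libraries also for Notch1. It was 935 to 1007 CPM in the other 4. Subtracting the endothelial marker mean from the log2 CPM of each library left an SD of 0.14 for Notch1 in place of 0.30. It left 0.18 for Notch3 in place of 0.33 and 0.22 for Dll4 in place of 0.37. The SD of Notch4 went from 0.56 to 0.40. In all, the SD fell for 7 of the 10 genes and grew for Notch2, Jag1 and Heyl, and it fell for 31.5% of all tested genes. Without WT 2 the SD of Dll4 went from 0.15 to 0.054, that of Heyl from 0.15 to 0.055 and that of Jag1 from 0.11 to 0.076, while that of Hey1 went from 0.27 to 0.35 and that of Notch2 from 0.082 to 0.087. The SD then fell for 8 of the 10 genes and for 28.5% of all genes. With all 6 libraries, subtracting the mural marker mean lowered the SD of the same 7 genes as the endothelial mean did, and of 30.9% of all genes. It left 0.21 for Notch1, 0.23 for Notch3 and 0.27 for Dll4. These are descriptions over 6 and 5 libraries, with no test. Between genotypes the endothelial marker mean was higher in Zeb2 cKO by 0.07 and the mural marker mean by 0.12 on the log2 scale, while the mean of 6 arterial endothelial markers differed by -0.027. Fold changes were above 0 for 9 of the 15 endothelial and 8 of the 10 mural markers but below 0 for 4 of the 6 arterial ones, of which Gja4, an arterial connexin, lay wholly lower in Zeb2 cKO with a log2 fold change of -0.23. The libraries of the genotypes overlapped in all 15 endothelial and all 10 mural markers. Of single markers, Pecam1 was at 89.1 ± 13.8 CPM in WT and 98.7 ± 7.52 CPM in Zeb2 cKO, and Cdh5 at 99.5 ± 24.6 and 112 ± 20.0 CPM (SD, n = 3 each). The 6 endothelial markers with a fold change below 0 ran from -0.010 for Tek to -0.27 for Cldn5. The mural marker Myh11 was at 16.6 ± 6.46 and 20.8 ± 6.84 CPM. Pdgfrb, also counted as a mural marker, was at 127 CPM in WT 2 and at 66.5 to 78.9 CPM in the other libraries. Tagln, of the same list, was at 20.8 CPM in WT 2 and at 9.31 to 11.8 CPM in the others. Both were highest in WT 2, in contrast to the mural list as a whole, and they were the 2 mural markers with a fold change below 0.

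To compare levels between genes, CPM were divided by the length of all annotated exons in kilobases. Over the 6 libraries the order of means was Notch3 (4.16 CPM per kilobase), Heyl (3.83), Notch2 (3.57), Notch1 (3.17), Dll4 (2.74), Jag1 (2.60), Notch4 (1.93), Hey1 (1.54), Jag2 (1.36) and Hey2 (0.576). The ranges over libraries of each pair of neighbours in this order overlapped, so that the order of neighbours is not resolved beyond their spread. Hey2 was nevertheless below Hey1 and Heyl in every library, at 0.465 to 0.723 CPM per kilobase against 0.907 to 1.87 for Hey1 and 3.08 to 4.72 for Heyl. Dividing by the longest annotated transcript instead, a choice made after seeing the data, put Notch1 first at 4.76 CPM per kilobase, since that transcript has 9488 bases where all its exons have 14232, and kept Hey2 last at 1.04.

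**Figure D4:**
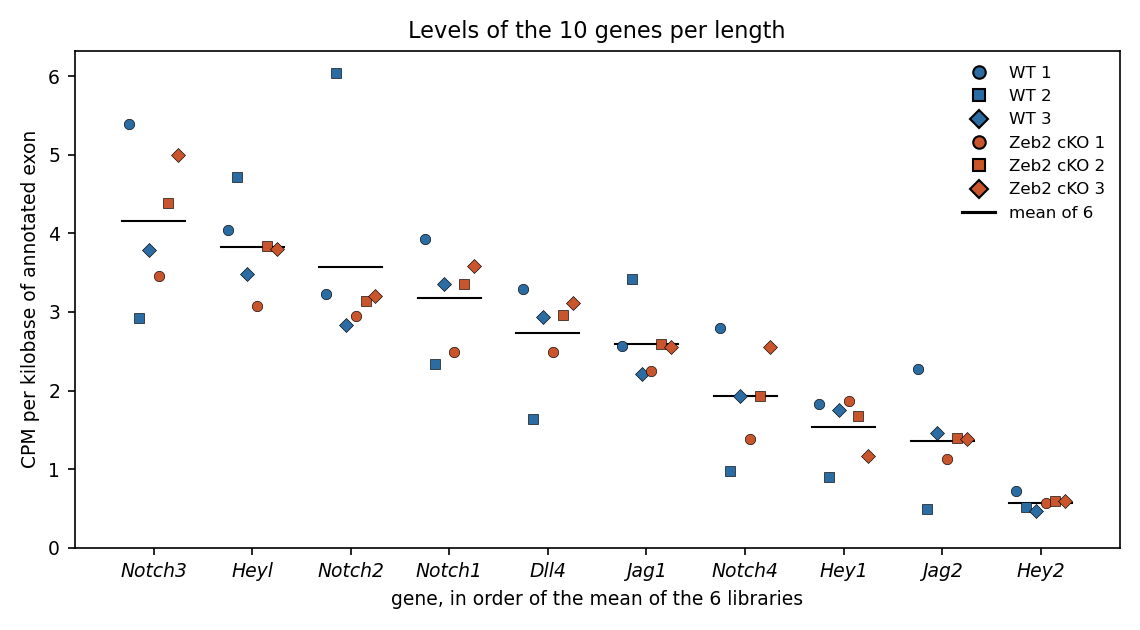
CPM per kilobase of annotated exon for the 10 genes, ordered by the mean of the 6 libraries (line), with each library as a point. Levels run from 4.16 for Notch3 to 0.576 for Hey2, and the points of neighbouring genes overlap.

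Some counts of the receptors are less certain because other annotated genes share their sequence and the strand setting of the counting is not stated in the sources used here. Antisense genes cover 14.6% of the longest Notch1 transcript (Gm13568 and 0610009E02Rik), 7.49% of that of Notch3 is shared with other genes, mainly with the antisense Gm17276, and 5.71% of that of Dll4 with the antisense Gm14207. For Notch2 the share was 5.17%, with Gm42820 on the same strand. For the other 6 genes it was 0%, at a threshold of 95% identity over at least 75 bases.

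For each gene, the 2 tested genes with the most similar profile over the 6 libraries were found by Pearson's r of log2 CPM among 12326 genes with a mean of at least 1 CPM. They were Ppp1r13b and Map4k3 for Notch1, Cygb and Fam13b for Notch2, Gm15542 and Safb for Notch3 and Rapgef5 and Cavin1 for Notch4. For the ligands they were Chd7 and Kif26a (Dll4), Hddc2 and Smarcad1 (Jag1) and Ncln and Obsl1 (Jag2). Mrps2 and Mb21d2 were found for Hey1, Epc1 and Zfp687 for Hey2 and Trim26 and Wtip for Heyl. These r ran from 0.986 to 0.998 and, without WT 2, from 0.939 (Notch2 and Fam13b) to 0.999. They were picked as the highest of 12326 over few libraries that include WT 2, and they carry no test.

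The rest of the pathway was represented by 54 further genes for ligands, sugar transfer to the receptor, ligand ubiquitination, receptor cleavage, the RBPJ complex, corepressors, receptor turnover and other targets. Of these 49 were tested, and 0 passed an adjusted p of 0.05 or an unadjusted p of 0.05 with edgeR and all 6 libraries. Their median log2 fold change was -0.10, against -0.0069 for all tested genes. Under -0.2 lay 17 of the 49 (34.7%), against 22.6% of all genes, and over 0.2 lay 3 (6.12%), against 15.9%. WT 2 was the highest library for 24 of the 49 (49.0%, against 35.2% of all genes) and the lowest for 13 (26.5%, against 34.6%). Zeb2 cKO 1 was the lowest for 15 (30.6%, against 16.9%). The part of single libraries in this skew was not tested. The ligands Dll3, Dlk1 and Dlk2 and the targets Hes5 and Hes7 were at 0 to 4 counts in every library and were not tested. Dll1, the remaining Delta ligand, was at 3.38 ± 0.280 CPM in WT and 3.19 ± 0.590 CPM in Zeb2 cKO (SD, n = 3 each), which is -0.082 on the log2 scale. Hes1, a classical Notch target beside the Hey genes, was at 11.9 ± 1.53 and 11.4 ± 0.555 CPM, or -0.055 on the log2 scale (standard error 0.13). Rbpj, the DNA-binding partner of the receptors, was at 9.16, 18.2 and 10.1 CPM in WT and at 10.5, 9.15 and 10.3 CPM in Zeb2 cKO. Like Notch2, it was highest in WT 2.

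In 3 of the 49 genes all Zeb2 cKO libraries lay below all WT libraries, and Aph1c and Adam17, which take part in receptor cleavage, were among them. The 10 cleavage genes had a median log2 fold change of -0.15, with 5 under -0.2 (50%, against 22.6% of all genes) and Aph1a, a subunit of gamma-secretase, over 0.2. Aph1c had the smallest unadjusted p of the 49 genes. It was at 0.717, 1.34 and 0.755 CPM in WT and at 0.679, 0.530 and 0.540 CPM in Zeb2 cKO, and its log2 fold change was -0.69 (standard error 0.32, exact permutation test, two-sided p = 0.1, the smallest possible). Its counts were 23 to 59 per library and are uncertain, since 42.7% of its longest transcript is shared with other genes, among them its paralogue Aph1b, at 95% identity or more. Adam17, the sheddase, had a log2 fold change of -0.21. After Aph1c, the smallest unadjusted p were those of Dtx1, a ubiquitin ligase of the receptors, at -0.96 (standard error 0.53), and Lfng, which adds sugars that tune ligand choice, at -0.57 (0.35). Dtx1 and Lfng were highest in WT 2. Without WT 1 the genes Aph1c, Dtx1 and Dtx4 had an unadjusted p under 0.05, against 7.52% of all genes. The Benjamini-Hochberg adjusted p of these genes by edgeR was at least 0.596 in that fit.

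**Figure D5:**
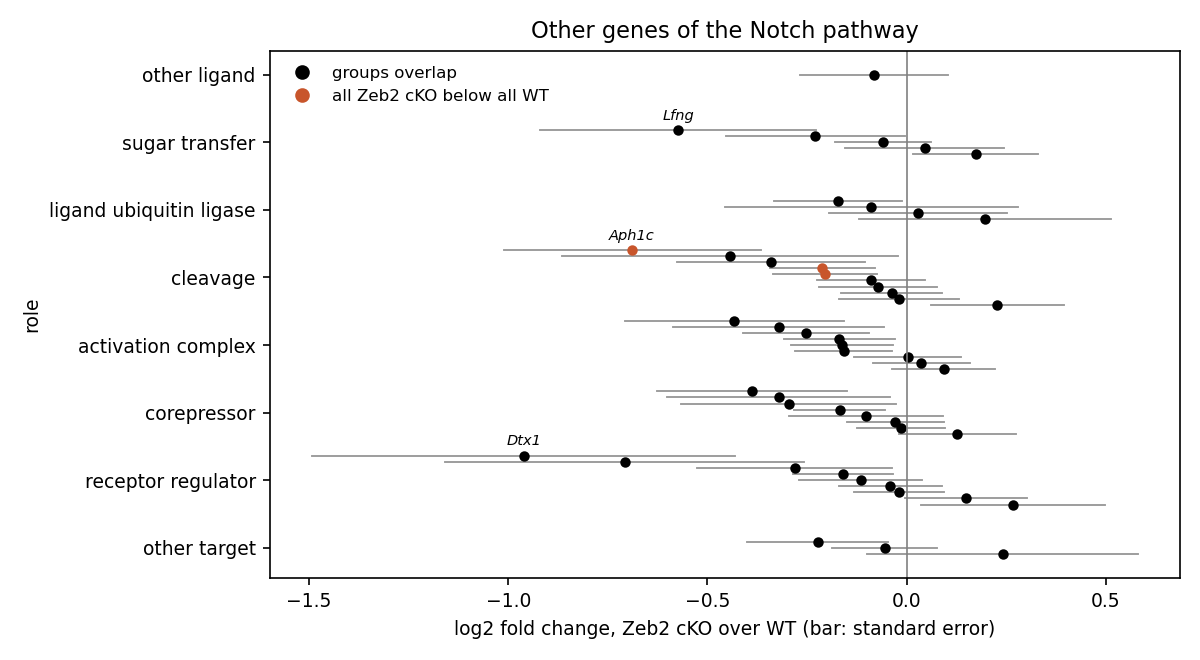
Log2 fold change of Zeb2 cKO over WT with its standard error for the 49 tested further genes of the pathway, by role. Orange points are genes whose Zeb2 cKO libraries all lie below the WT libraries, and the 3 genes with the smallest unadjusted p are named.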

How the data were processed

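The data are raw counts, deposited by the authors as 1 table for 6 libraries. Per the study's methods and labels, RNA depleted of ribosomal RNA was made into stranded libraries (TruSeq), and reads were aligned and counted with STAR on a Gencode annotation of GRCm38. The authors' DESeq test was not repeated. All 6 columns matched a sample, with 0 left over. Genes were named by identifier from Gencode M21. Counts were filtered with filterByExpr, scaled with TMM and tested with edgeR 4.0.16 (limma 3.58.1, R 4.3.3), and p-values were adjusted over all 14746 tested genes. CPM use the scaled library sizes. Intervals are 95% intervals from the fit, and they and the p-values measure the spread between these libraries. DESeq2 1.42.0 was an alternative. Shared sequence was found with BLAST 2.17.0. Scripts were tested on simulated data. The text names all members, Zeb2, Rbpj, Hes1, Dll1, the 4 further pathway genes with the smallest unadjusted p, the 2 most similar genes per member and 6 markers. Some results these rules name are not reported here. Adam17, Aph1a, Dtx4, Gja4, Tek, Cldn5 and Tagln were named after their values were seen. Members and lists were chosen with earlier results of these data known.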

Additional observations from a re-analysis of the deposited data

How the results depend on the processing

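Each fold change of the 10 genes was recomputed in 14 ways, which gave 140 values, of which 115 kept their direction and their side of the threshold and 25 changed sign. No alternative gave a member an adjusted p under 0.05, and adjusted p ran from 0.602 to 0.99992. Another scaling (RLE), no filter on low counts, DESeq2, leaving out mitochondrial genes and robust dispersions changed no sign and no call. DESeq2 called 2 of all tested genes at an adjusted p of 0.05 and 361 at an unadjusted p of 0.05. The replicate numbers showed no pairing of the libraries (correlation of deviations of same-numbered libraries 0.088, -0.14 and -0.087). With 3 libraries per group, these values cannot exclude one. A fit with the replicate number as a block turned the log2 fold change of Jag2 to 0.11 and left 247 genes with an unadjusted p under 0.05, in place of 280. With the endothelial marker mean as a covariate, the values were -0.067 for Notch3, -0.19 for Notch4, -0.0090 for Dll4 and -0.0086 for Hey2. With the joint mean of the fibroblast and macrophage markers as a covariate, they were -0.054 for Notch3, -0.17 for Notch4 and -0.054 for Dll4. In the same fit they were -0.14 for Hey1 and -0.029 for Hey2, and 1 member (Jag2) had an unadjusted p under 0.05. The cause of these sign changes was not tested.

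Leaving out 1 library at a time gave log2 fold changes from -0.21 to 0.145 for Notch1, -0.58 to 0.038 for Notch2, -0.097 to 0.35 for Notch3, -0.27 to 0.43 for Notch4, -0.12 to 0.33 for Dll4, -0.28 to 0.047 for Jag1, -0.52 to 0.42 for Jag2, -0.19 to 0.25 for Hey1, -0.081 to 0.25 for Hey2 and -0.29 to -0.071 for Heyl. The number of members with an unadjusted p under 0.05 ran from 0 to 1, that of members whose groups do not overlap from 0 to 2, that over 0.2 from 0 to 6, that under -0.2 from 1 to 3, and that of further pathway genes with an unadjusted p under 0.05 from 0 to 3. Hey2 had the fewest counts of the 10 genes, at 82 to 146 per library, but not the widest interval. Its standard error was 0.21, where Jag2 had 0.48 and Notch4 0.39. Only Jag1 (0.18) and Heyl (0.16) had a smaller one.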
